A study of Homo sapiens with 8 samples.

Results

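HOX genes encode the homeodomain transcription factors that set identity along the body axis. They lie side by side in the clusters A, B, C and D on chromosomes 7, 17, 12 and 2, and genes with the same number in different clusters are paralogs derived from one ancestral gene. Within a cluster, low numbers are used early and towards the head and high numbers late and towards the tail, a pattern called colinearity. Their use is set by retinoic acid, which acts on the low-numbered end, and by the opposing Polycomb and Trithorax chromatin regulators. HOX proteins bind DNA with cofactors of the PBX and MEIS families, and adult cells, including lung epithelium and carcinomas, keep a part of the code. All genes with a symbol of HOXA, HOXB, HOXC or HOXD followed only by a number were taken, whatever their values. Earlier results of these data were known when members and lists were chosen. This gave 39 HOX genes among the 19053 genes that the array probes matched.

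The study asked whether helveticoside, a cardiac glycoside, accounts for the gene expression induced by EEDS, the ethanol extract of Descurainia sophia seeds, in A549, a human lung cancer cell line. A549 cells received EEDS at 1.25, 5 or 20 μg/mL, or helveticoside at 3.75, 15 or 60 nM, and each series had its own vehicle control at a dose of 0. The sample labels give an incubation of 48 h and the methods an exposure of 24 h for the arrays, and which of them holds was not settled here. RNA from 3 cultures was pooled for each of the 8 one-colour arrays, 1 array for each dose and control. A single dose therefore has no replicate error, and no p-value is given for one. All groups come from 1 cell line, and in bulk RNA fewer cells that express a gene and less RNA per cell cannot be told apart. The doses of the extract and of helveticoside were not matched by content, so values of both agents stand side by side by dose step.

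Values are log2 signals after quantile normalization of the 8 arrays, and a log2 ratio is the difference from the vehicle control of the same series. Between 54.5% and 64.9% of the probe spots of an array were well above background by the scanner software, and the EEDS arrays lay above the helveticoside arrays in this share. The median SD between spots of one probe was 0.069 to 0.085 on the log2 scale. All 10 epithelial markers examined, among them EPCAM, KRT8 and KRT18, were well above background on all 8 arrays. Of the fibroblast, endothelial and leukocyte markers, 2 of 10, 2 of 7 and 3 of 7 were, and COL1A2, DCN, PECAM1, VWF and CD3E were on none. Of these 10, 3 were more than 2-fold lower at 20 μg/mL EEDS and 2 at 60 nM helveticoside, 0 were more than 2-fold higher, and log2 ratios ran from -2.70 to 0.62 and from -2.71 to 0.53. The lowest was CDH1 (E-cadherin), 6.52-fold lower with EEDS and 6.54-fold lower with helveticoside, and the part of these changes in the HOX results was not tested.

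A549 cells gave signal from 29 HOX genes, and 21 of the 39 were well above background on all 8 arrays. The expressed genes were unevenly spread over the clusters. Cluster A had 8 of 11 genes on every array, cluster B 7 of 10, cluster C 5 of 9 and cluster D 1 of 9, HOXD10. Among the 10 genes well above background on no array were HOXB1, HOXC5, HOXC10, HOXC11, HOXC12, HOXD1, HOXD3, HOXD4 and HOXD12, so the whole of paralog group 12 was below that limit. The other 8 were well above background on 1 to 7 arrays: HOXA2, HOXB7 and HOXD8 on 7, HOXB4 on 6, HOXD9 and HOXD11 on the 4 EEDS arrays, HOXA11 on the 5 μg/mL array and HOXD13 on the EEDS control. All 39 passed the filter on low values, which asks for a signal over local background on 1 array of a series and is met by nearly every gene.

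At the top doses more HOX genes were lower than higher. With 20 μg/mL EEDS, 12 of the 39 HOX genes were more than 2-fold below the control, against 14.5% of all genes, and 4 were more than 2-fold above it, against 13.3%. With 60 nM helveticoside, 9 were more than 2-fold lower, against 12.8% of all genes, and 2 were higher, against 10.8%. The 9 genes lower with helveticoside, HOXA6, HOXA7, HOXB5, HOXB6, HOXB8, HOXB13, HOXC4, HOXC6 and HOXD8, were all among the 12 lower with EEDS. The other three were HOXA10, HOXA13 and HOXC5, and HOXC5 was not well above background on either array. HOXA4 and HOXC13 were more than 2-fold higher with both agents, HOXB3 and HOXA11 with EEDS, and HOXA11 was not well above background at 20 μg/mL. More than 2-fold lower at both top doses were 9.66% of all genes, and more than 2-fold higher at both were 7.37%.

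**Figure D1:**
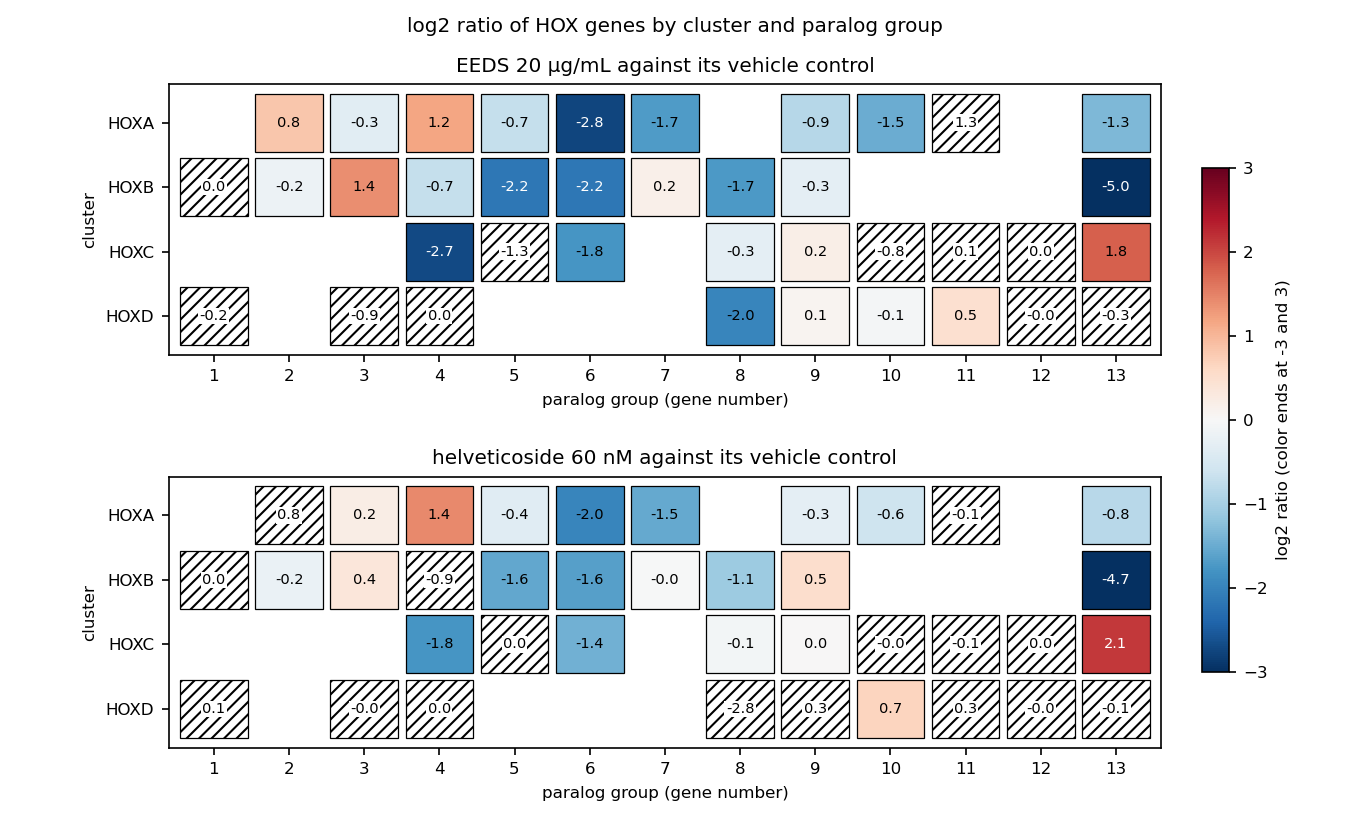
Log2 ratio to the vehicle control of HOX genes, with clusters as lines and paralog groups 1 to 13 as columns, for 20 μg/mL EEDS (top) and 60 nM helveticoside (bottom). Hatched boxes lack a well-above-background call on the control, the treated array or both; the blue boxes of both panels lie mainly between groups 4 and 8, with HOXB13 the lowest at -5.00 and -4.67, and HOXC13 is red in both.

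Among the 21 HOX genes well above background on every array, 10 were more than 2-fold lower with EEDS, against 16.2% of such genes, and 3 higher, against 14.3%. With helveticoside 8 of the 21 were lower, against 13.3%, and 2 higher, against 10.9%. The median log2 ratio of these 21 was -0.86 with EEDS and -0.36 with helveticoside, where the medians over all genes measured on every array were -0.01 and 0.02. Of the 21, 17 lay below the control with EEDS and 14 with helveticoside by any amount, against 50.5% and 48.7% of all genes measured as well.

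A dose trend was tested with limma as the slope per dose step over the control and 3 doses, with all 8 arrays in 1 fit, so that the scatter of arrays about the trend lines stands in for replicates and may be technical. With EEDS, 8 of the 39 HOX genes passed an adjusted p of 0.05 (Benjamini-Hochberg over all genes), where 15.1% of all genes did. With helveticoside 5 passed, where 11.3% did. HOXA6, HOXA13, HOXB5, HOXB13 and HOXC6 fell with EEDS (7.85% of all genes fell), and HOXA4, HOXB3 and HOXC13 rose (7.26% rose). HOXA13, HOXB5 and HOXC6 fell with helveticoside (5.79%) and HOXA4 and HOXC13 rose (5.46%). How far the HOX share lay from that of all genes depended on the setting. Among probes well above background on all 8 arrays, 13 of 21 HOX genes had a trend with EEDS, against 31.3% of all such genes, and 9 of 21 with helveticoside, against 24.1%. Without background subtraction 13 of the 39 had one with EEDS, against 18.6%. With helveticoside, 4 of the 39 had one scaled to the 75th percentile, against 13%, and 3 of 38 with the deposited values, against 9.1%. With no filter, the mean of probes or plain eBayes the counts stayed at 8 and 5. At an unadjusted p under 0.05 there were 17 HOX genes with EEDS (33.4% of all genes) and 11 with helveticoside (29.8%). Without any 1 of the 3 dose steps, or with the 4 arrays of a series alone, no gene of the array passed in limma; 9 to 15 HOX genes with EEDS and 5 to 10 with helveticoside then had an unadjusted p under 0.05, where 19.6% to 28.4% and 17.1% to 25.9% of all genes did.

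Few HOX genes passed 2-fold below the top doses, and the shares of all genes that did are given beside each count. At 1.25 μg/mL EEDS, 3 HOX genes were more than 2-fold lower (3.66% of all genes) and 0 higher (4.22%), and at 5 μg/mL 4 were lower (8.47%) and 3 higher (7.34%). At 3.75 nM helveticoside 0 were lower (4.3%) and 2 higher (3.38%), neither of them well above background on both arrays. Of these 2, HOXB4 was well above background at 3.75 nM and at least 2.17-fold higher by the bound, and HOXD12 was so on neither array. At 15 nM 2 were lower (8.06%) and 2 higher (7.08%). HOXA7 and HOXC6, at log2 ratios of -1.04 and -1.09, were the lower genes well above background at 1.25 μg/mL EEDS.

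**Figure D2:**
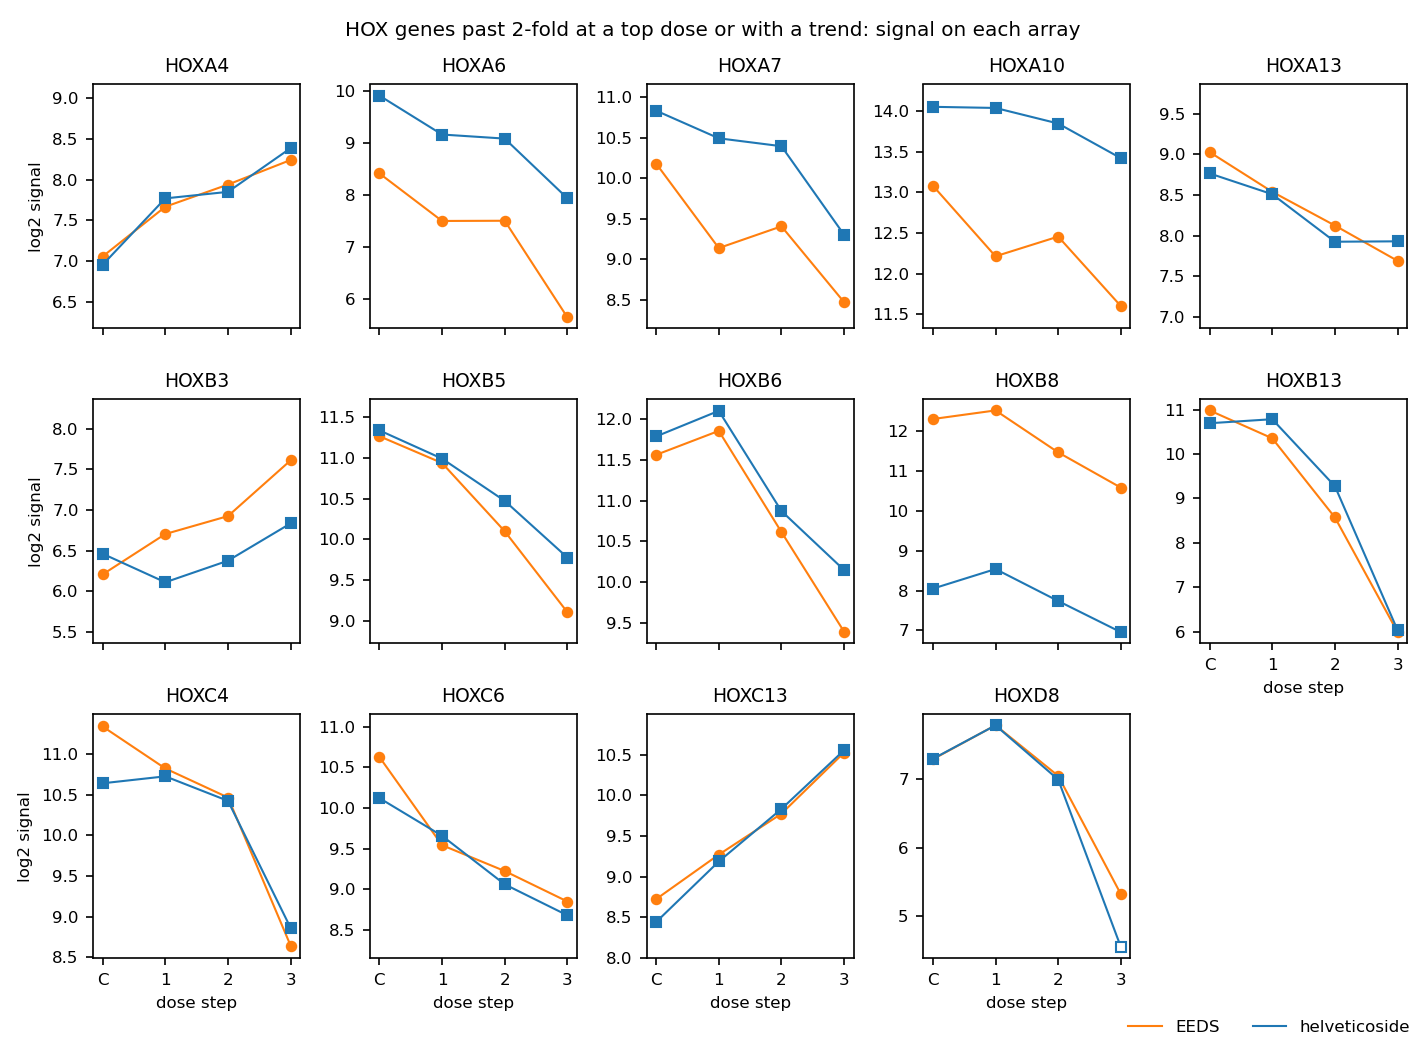
Log2 signal on each of the 8 arrays for 14 HOX genes, against dose step (C, vehicle control; 1 to 3, rising dose), with EEDS as orange circles, helveticoside as blue squares, open marks not well above background, and a separate signal axis for each gene. HOXC13 climbs at every step from 8.72 to 10.53 and from 8.44 to 10.55, HOXB13 drops to 5.99 and 6.03, and the 2 lines of HOXB8 stay apart.

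Start-site sequences were examined for all HOX genes that had them on hand, whether or not their signal changed. The upstream 250 bases were on hand for 20 of the 39 genes, with 27 annotated starts (RefSeq, GRCh38.p14). Among these are HOXB1, HOXC5, HOXD1, HOXD3, HOXD4 and HOXD12, well above background on no array. HOXB3, HOXB5, HOXB6, HOXB8, HOXB13, HOXC6 and HOXC13, past 2-fold at a top dose, had no window. The shares below therefore do not describe the genes that moved. The letters searched on both strands, with overlapping matches counted, were TATAAA (the core promoter box of that name), CCAAT (the box bound by NF-Y), GGGCGG (the GC box), TGATNNAT (PBX-HOX site), TGACTCA (AP-1), TGACGTCA (CRE), GCGTGGGCG (EGR) and AGGTCA (a nuclear receptor motif). CCAAT was in 18 of the 27 windows (66.7%, against 32% of 35116 windows of the same length), TATAAA in 5 (18.5% against 10.7%), GGGCGG in 13 (48.1% against 42.6%) and TGATNNAT in 3 (11.1% against 6.47%). The AP-1, CRE, EGR and nuclear receptor letters were in 0 of the 27, and in 4.2%, 1.65%, 0.72% and 12.1% of all windows. Windows of HOX genes held a median of 19 CpG dinucleotides, and all windows one of 11. HOXA3 and HOXA10 have several starts, and HOXC4 and HOXC5 share one, so the windows are not independent. A match describes letters and is not a binding site. Windows of HOXA genes that lay lower at the top doses (HOXA6, HOXA7, HOXA13), of HOXA4, which rose beside them, of HOXC4 and of HOXD8 are shown, with the matches in capitals.
HOXA4: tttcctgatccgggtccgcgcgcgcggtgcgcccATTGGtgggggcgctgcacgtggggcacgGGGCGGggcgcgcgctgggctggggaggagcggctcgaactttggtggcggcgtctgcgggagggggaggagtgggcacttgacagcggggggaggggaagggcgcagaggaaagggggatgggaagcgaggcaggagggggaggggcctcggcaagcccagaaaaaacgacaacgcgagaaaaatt
HOXA6: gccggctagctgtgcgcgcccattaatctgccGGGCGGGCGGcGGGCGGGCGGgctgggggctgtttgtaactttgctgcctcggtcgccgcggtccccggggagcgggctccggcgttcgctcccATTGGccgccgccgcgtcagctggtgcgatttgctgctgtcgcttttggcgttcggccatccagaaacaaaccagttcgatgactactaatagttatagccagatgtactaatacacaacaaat
HOXA7: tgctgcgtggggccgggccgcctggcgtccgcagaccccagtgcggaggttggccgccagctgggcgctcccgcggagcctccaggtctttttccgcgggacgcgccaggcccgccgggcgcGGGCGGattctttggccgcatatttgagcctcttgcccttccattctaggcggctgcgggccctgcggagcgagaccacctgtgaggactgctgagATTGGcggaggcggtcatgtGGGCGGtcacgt
HOXA13: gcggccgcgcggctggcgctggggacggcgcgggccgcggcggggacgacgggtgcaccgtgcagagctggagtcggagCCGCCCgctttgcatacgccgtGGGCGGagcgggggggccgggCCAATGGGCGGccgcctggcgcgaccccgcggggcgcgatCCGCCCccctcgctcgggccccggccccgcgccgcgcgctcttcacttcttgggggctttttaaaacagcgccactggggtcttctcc
HOXC4: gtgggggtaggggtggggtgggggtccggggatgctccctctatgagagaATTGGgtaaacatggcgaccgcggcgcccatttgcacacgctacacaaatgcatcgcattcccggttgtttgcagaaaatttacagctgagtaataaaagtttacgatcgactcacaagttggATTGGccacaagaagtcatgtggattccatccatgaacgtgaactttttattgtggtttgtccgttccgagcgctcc
HOXD8: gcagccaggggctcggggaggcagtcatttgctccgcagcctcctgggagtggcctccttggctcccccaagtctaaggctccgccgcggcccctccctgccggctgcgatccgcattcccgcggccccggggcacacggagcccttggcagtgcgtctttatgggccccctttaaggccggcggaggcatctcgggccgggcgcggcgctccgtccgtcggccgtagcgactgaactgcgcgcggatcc
The windows are chr7:27130758-27131007 (minus strand) for HOXA4, chr7:27147775-27148024 (minus strand) for HOXA6, chr7:27156676-27156925 (minus strand) for HOXA7, chr7:27200092-27200341 (minus strand) for HOXA13, chr12:54016638-54016887 (plus strand) for HOXC4 and chr2:176129455-176129704 (plus strand) for HOXD8. HOXA4 and HOXA6, which moved in opposite directions, both held a CCAAT and GC boxes. HOXA6 held 4 GC box matches in 2 overlapping pairs, HOXA13 held 4, HOXA7 2 and HOXA4 1. HOXC4 held 2 CCAAT boxes and no GC box, and HOXD8 held none of the letters searched and 28 CpG dinucleotides.

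Genes of cluster A moved in both directions. HOXA4 rose with both agents while HOXA6, HOXA7, HOXA10 and HOXA13 were lower at the top dose of EEDS, and HOXA6 and HOXA7 at that of helveticoside. HOXA4, a gene of cervical identity, read 7.06, 7.67, 7.94 and 8.24 on the log2 scale at 0, 1.25, 5 and 20 μg/mL EEDS. It read 6.95, 7.77, 7.85 and 8.39 at 0, 3.75, 15 and 60 nM helveticoside. Every treated array lay above both controls and each step was upward. The slope was 0.38 ± 0.08 log2 per dose step (SE, limma, adjusted p = 0.0383) with EEDS and 0.44 ± 0.08 (adjusted p = 0.0341) with helveticoside, and the top doses were 2.28-fold and 2.70-fold above the control. Under the alternatives its ratio stayed positive in all 8 and was past 2-fold in 5 of 8 with EEDS and 7 of 8 with helveticoside. The filters and the mean of probes are among the 8 and could not change this ratio, since HOXA4 has 1 probe, well above background on every array. Scaled to the 75th percentile neither of its slopes passed (limma adjusted p = 0.0756 and 0.0604), and with the deposited processed values the helveticoside slope did not (adjusted p = 0.0963).

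HOXA6 read 8.41, 7.49, 7.50 and 5.64 with rising EEDS and 9.90, 9.15, 9.08 and 7.93 with rising helveticoside. In both series the first dose was lower, the second no lower than the first by more than 0.1, and the top dose lowest. It was 6.80-fold lower at 20 μg/mL and 3.93-fold lower at 60 nM, with slopes of -0.83 ± 0.18 (limma adjusted p = 0.0365) and -0.60 ± 0.18 (adjusted p = 0.0888). Without background subtraction the EEDS log2 ratio was -1.73 in place of -2.77. Against the other series' control the HOXA6 log2 ratio was -4.26 at 20 μg/mL and -0.48 at 60 nM, the latter within 2-fold. HOXA7 read 10.18, 9.14, 9.41 and 8.47, and 10.83, 10.49, 10.39 and 9.30. Its top doses were 3.26-fold and 2.88-fold below the controls, and neither slope passed in limma (adjusted p = 0.0797 and 0.100). Against the other series' control the HOXA7 log2 ratios were -2.36 at 20 μg/mL and -0.88 at 60 nM, the latter within 2-fold. RefSeq places HOXA3, HOXA4, HOXA5 and HOXA6 in overlapping spans and HOXA5, HOXA6 and HOXA7 over the antisense RNA HOXA-AS3, and where the probes lie in them was not analysed here.

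HOXA13, the last gene of the cluster and a regulator of limb, hindgut and genital development, read 9.03, 8.54, 8.12 and 7.69 with EEDS. It read 8.76, 8.51, 7.92 and 7.93 with helveticoside. All treated arrays were below both controls, and the slopes passed in limma for both agents (-0.44 ± 0.07, adjusted p = 0.019, and -0.31 ± 0.07, adjusted p = 0.0442). At the top doses it was 2.53-fold and 1.78-fold lower. The helveticoside slope did not pass without background subtraction, with normexp, scaled to the 75th percentile or with the deposited values (limma adjusted p = 0.0509 to 0.141), and the EEDS slope did in each. HOXA10, a regulator of the uterus and of blood progenitors, read 13.08, 12.21, 12.45 and 11.60, and 14.05, 14.04, 13.84 and 13.42, and was 2.79-fold lower at 20 μg/mL (limma adjusted p = 0.0552). A dimmer probe of HOXA10 gave log2 ratios of 0.20 and -0.09 at the top doses, so the probes of this gene disagree, and the mean of both gave -0.64 with EEDS. HOXA5, HOXA9 and HOXA3 stayed within 2-fold, at -0.72, -0.86 and -0.35 with EEDS and -0.36, -0.29 and 0.21 with helveticoside.

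Cluster B held the gene with the lowest ratio of the 39, HOXB13, and a run of lower genes from HOXB5 to HOXB8 that HOXB7 interrupts. HOXB13, a regulator of prostate and tail-end identity, read 10.98, 10.36, 8.57 and 5.99 with EEDS. It read 10.69, 10.79, 9.28 and 6.03 with helveticoside. At the lowest dose its log2 ratio was -0.63 with EEDS and 0.09 with helveticoside, and most of the drop lay in the last 2 steps of each series. HOXB13 was 32.0-fold lower at 20 μg/mL and 25.4-fold lower at 60 nM, and without background subtraction its log2 ratios were -3.84 and -3.43. The slope was -1.68 ± 0.37 with EEDS (limma adjusted p = 0.0398) and -1.55 ± 0.37 with helveticoside (adjusted p = 0.0555).

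HOXB5, a regulator of gut neurons and lung branching, was lower at each dose than at the one before, by more at each step. It read 11.27, 10.94, 10.10 and 9.10 with EEDS and 11.34, 10.99, 10.47 and 9.77 with helveticoside. The slopes were -0.73 ± 0.08 (limma adjusted p = 0.014) and -0.52 ± 0.08 (adjusted p = 0.0257), and the top doses were 4.48-fold and 2.96-fold lower. HOXB6 read 11.56, 11.86, 10.62 and 9.39, and 11.79, 12.11, 10.87 and 10.15. HOXB8, whose protein acts in spinal cord and myeloid precursors, read 12.30, 12.51, 11.46 and 10.58, and 8.05, 8.54, 7.74 and 6.96. Both genes were slightly above the control at the lowest dose and below it from the middle dose on, in both series. HOXB6 was 4.52-fold and 3.12-fold lower at the top doses and HOXB8 3.29-fold and 2.13-fold, and no slope of theirs passed in limma (adjusted p = 0.0632 to 0.215).

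The HOXB8 signal differed between the untreated states themselves. The helveticoside control was 4.25 below the EEDS control on the log2 scale, a wider gap than any dose produced, and against the other series' control the 20 μg/mL array would read 2.53 above. The controls were more than 2-fold apart for 7 of the 39 HOX genes, where 10.4% of all genes were. Among genes well above background on both controls it was 3 of 23 HOX genes, and 656 of 12383 genes in all. HOXA6 and HOXB9 were among them, at 1.49 higher and 1.12 lower in the helveticoside control. Each control is 1 array, so the series, its cultures and its array cannot be told apart.

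HOXB3, a low-numbered gene of hindbrain patterning, read 6.21, 6.70, 6.92 and 7.61 with EEDS and 6.46, 6.11, 6.38 and 6.83 with helveticoside. It rose with EEDS (slope 0.44 ± 0.11, limma adjusted p = 0.0466, 2.65-fold at 20 μg/mL) and did not pass with helveticoside (0.14 ± 0.11, adjusted p = 0.473). The slopes differed by 0.30 at an unadjusted p of 0.09, and the difference did not pass. Scaled to the 75th percentile the EEDS slope did not pass either (limma adjusted p = 0.0952). HOXB9 read 11.46, 12.41, 12.68 and 11.17 with EEDS and 10.34, 11.05, 11.79 and 10.87 with helveticoside. It was above the control at the lower doses of both agents, 2.33-fold at 5 μg/mL and 2.73-fold at 15 nM, and within 2-fold of it at the top. With EEDS, HOXB7 was also highest at 5 μg/mL, at a log2 ratio of 0.67. HOXB2 stayed at -0.18 and -0.20 at the top doses by the probe with the higher mean over the 8 arrays. By its other probe, the brighter on the EEDS control, it was at -0.81 and -0.94. HOXB7 stayed at 0.18 and -0.02, and HOXB4 at -0.70 with EEDS. Neither the control nor the 60 nM array of helveticoside had HOXB4 well above background.

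In cluster C genes at the start were lower at the top doses and the last gene rose. HOXC13, which is needed for hair and nail keratins, rose with both agents. It read 8.72, 9.27, 9.77 and 10.53 with EEDS and 8.44, 9.18, 9.83 and 10.55 with helveticoside. Each step of each series was upward. The slope was 0.59 ± 0.05 with EEDS (limma adjusted p = 0.0131) and 0.70 ± 0.05 with helveticoside (adjusted p = 0.0165), with 3.49-fold and 4.33-fold at the top doses. The ratio was past 2-fold under all 8 alternatives for each agent. The filters and the mean of probes are among the 8 and could not change it, since HOXC13 has 1 probe, well above background on every array. HOXC13 and HOXB13, paralogs in group 13, thus moved in opposite directions with both agents, and HOXA13 moved with HOXB13.

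HOXC6, a regulator of thoracic identity and of the mammary gland, read 10.63, 9.54, 9.22 and 8.85 with EEDS and 10.12, 9.66, 9.06 and 8.68 with helveticoside. It was lower at every dose than at the one before in both series. The slopes were -0.57 ± 0.09 (limma adjusted p = 0.02) and -0.49 ± 0.09 (adjusted p = 0.0308), and the top doses 3.43-fold and 2.72-fold below the control. With the deposited values the helveticoside slope did not pass (limma adjusted p = 0.0530). HOXC4, used in cervical identity and in lymphocytes, read 11.34, 10.82, 10.47 and 8.64, and 10.64, 10.73, 10.43 and 8.86. Most of its drop lay in the last step, to 6.48-fold and 3.43-fold below the control, and the slopes did not pass (limma adjusted p = 0.0573 and 0.157). RefSeq gives HOXC4, HOXC5 and HOXC6 overlapping spans, with the shared start shown above for HOXC4 and HOXC5, so their signals may not be separate. HOXC8 and HOXC9, beside them in the cluster, were at -0.28 and 0.20 with EEDS and -0.08 and 0.02 with helveticoside.

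Cluster D gave little signal. HOXD8 read 7.29, 7.79, 7.05 and 5.32 with EEDS and 7.30, 7.79, 7.00 and 4.55 with helveticoside, the last not well above background. It was 3.93-fold lower at 20 μg/mL and at least 3.54-fold lower at 60 nM, where the bound takes the lowest signal well above background on that array. The 2 series ran together up to the middle dose, and no slope passed in limma (adjusted p = 0.261 and 0.162). Without background subtraction the EEDS log2 ratio was -0.99. HOXD10 read 8.16, 8.15, 8.43 and 8.10, and 7.90, 7.50, 8.11 and 8.56, within 2-fold of the control throughout. HOXD9 and HOXD11, measured with EEDS, were at 0.08 and 0.48 at 20 μg/mL.

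Ordered by paralog group, the lower genes lay mainly in groups 4 to 8, which are the first genes of cluster C. HOXB13, with the lowest ratio, lies outside these groups. More than 2-fold lower were 14.5% of all genes with EEDS and 12.8% with helveticoside, and 13.3% and 10.8% were higher. Of the 15 genes in paralog groups 4 to 8, 9 were more than 2-fold lower with EEDS and 8 with helveticoside, and 1, HOXA4, was higher. Without HOXC5 with EEDS and HOXD8 with helveticoside, which lacked a signal well above background on both arrays compared, 8 and 7 were lower. Of the 8 in groups 1 to 3, 0 were lower with either agent. Of the 16 in groups 9 to 13, 3 were lower with EEDS and 1 with helveticoside. The median log2 ratios were -0.06, -1.71 and -0.03 with EEDS and 0.09, -1.09 and -0.01 with helveticoside, from low to high groups. In groups 1 to 3, 4 of the 8 genes were well above background on no array, in groups 4 to 8 it was 2 of 15, and in groups 9 to 13 it was 4 of 16. Among genes measured on all 8 arrays, 7 of 10 in the middle groups were more than 2-fold lower with each agent. It was 0 of 3 in groups 1 to 3, and 3 of 8 and 1 of 8 in groups 9 to 13. Of all genes measured on all 8 arrays, 16.2% were more than 2-fold lower with EEDS and 13.3% with helveticoside. Without background subtraction the middle-group median with EEDS was -0.99. These counts describe neighbouring genes, which share transcripts and starts, and carry no test.

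**Figure D3:**
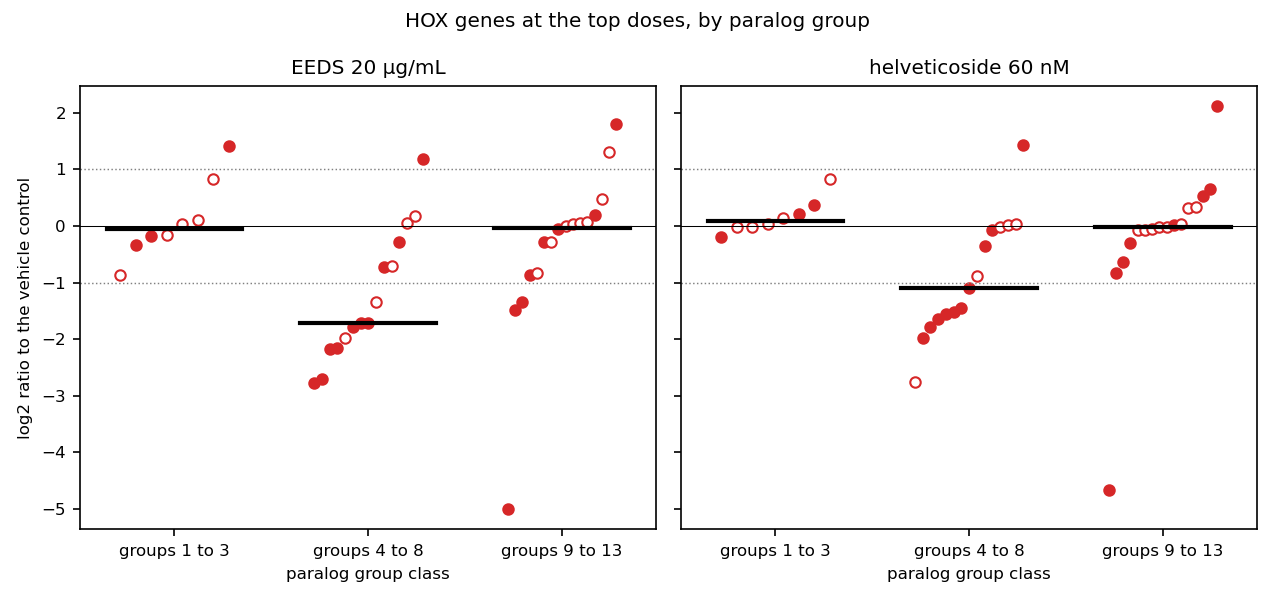
Log2 ratio to the vehicle control at the top doses for HOX genes of paralog groups 1 to 3, 4 to 8 and 9 to 13, 1 point a gene in rising order, with 20 μg/mL EEDS on the left and 60 nM helveticoside on the right. Bars are medians, dotted lines mark 2-fold, and filled points were well above background on all 8 arrays; the middle groups have medians of -1.71 and -1.09 and the outer ones lie within 0.1 of 0.

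Paralogs were alike in some groups and not in others. All 3 genes of group 6, HOXA6, HOXB6 and HOXC6, were more than 2-fold lower with both agents. In group 4, HOXA4 rose while HOXC4 was lower at the top doses, HOXB4 was within 2-fold with EEDS and HOXD4 gave no signal. In group 8, HOXB8 and HOXD8 were lower and HOXC8 was within 2-fold. In group 9, none of the 4 genes was past 2-fold at either top dose. By cluster, the median log2 ratio was -0.72, -0.50, -0.28 and -0.06 for A, B, C and D with EEDS, and -0.29, -0.55, -0.01 and 0.04 with helveticoside.

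The HOX responses to both agents ran side by side, as did those of most genes. At the top doses 30 of the 39 HOX genes had the same sign with both agents, and 14573 of all 19053 genes did. Over the 39 genes the top-dose log2 ratios correlated at a Pearson r of 0.914 (Spearman rho 0.804), and over the 21 genes measured on every array at 0.963 (rho 0.956). At the middle doses r was 0.917 and at the lowest doses 0.644 over the same 21. Genes are not independent replicates and share the arrays and the normalization, and the controls are separate arrays. The EEDS ratio was the farther from 0 for HOXA6, HOXA7, HOXB5, HOXB6, HOXB8, HOXB13, HOXC4 and HOXC6, and the helveticoside ratio for HOXA4 and HOXC13. HOXD8, with a bound alone at 60 nM, has no order. No HOX slope differed between the agents after adjustment in limma (0 of 39, and 0% of all genes); 1 did at an unadjusted p under 0.05, HOXA11, well above background on 1 array, where 2.76% of all genes did. A missed threshold does not show that the agents act alike.

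**Figure D4:**
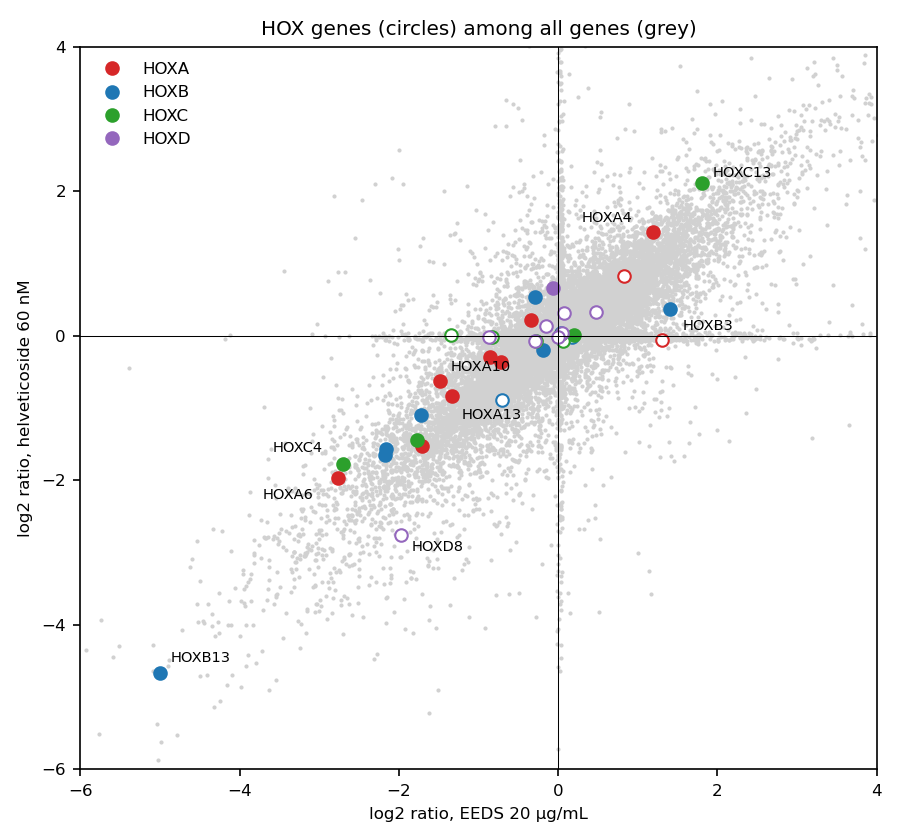
Log2 ratio at 60 nM helveticoside against that at 20 μg/mL EEDS for the 39 HOX genes, colored by cluster, over all genes in grey (genes beyond the axes are not drawn); open circles were not well above background on all 8 arrays. HOXB13 lies at the lower left, HOXA4 and HOXC13 at the upper right, and HOXB3 and HOXA10 lie off the diagonal.

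Among the cofactors through which HOX proteins bind DNA, MEIS3 was 2.65-fold lower at 20 μg/mL EEDS and 2.84-fold lower at 60 nM helveticoside. Its log2 signals were 8.04, 7.46, 7.40 and 6.63 over the EEDS doses and 7.23, 6.80, 6.69 and 5.73 over the helveticoside doses, lower at each step. Neither slope passed in limma (adjusted p = 0.0520 and 0.0507). PBX2, PBX3, PBX4, MEIS1, MEIS2 and PKNOX1, of the same families, were within 2-fold at both top doses, and none of their slopes passed. Of the 8 cofactors examined, 2 were more than 2-fold lower at both top doses, where 9.66% of all genes were. In limma 1 of the 8 fell with EEDS (7.85% of all genes) and 1 with helveticoside (5.79%), a member counted but not named here.

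Of the 33 Polycomb genes, 2 fell and 5 rose with EEDS in limma, and 2 fell and 3 rose with helveticoside, with medians of 0.24 and 0.28 at the top doses. Of all genes, 7.85% fell and 7.26% rose with EEDS, and 5.79% fell and 5.46% rose with helveticoside. CBX2, a Polycomb subunit that reads methylated histone H3, was 10.2-fold and 5.59-fold lower at the top doses (adjusted p = 0.0146 and 0.0272). PHC2, a subunit of the same complex, rose to 4.80-fold and 3.94-fold, and RYBP, of the variant complexes that lack CBX proteins, to 3.95-fold and 2.79-fold. EZH2, the histone methyltransferase of the other Polycomb complex, was at 0.20 and -0.76 and did not pass in limma (adjusted p = 1 and 0.399).

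Of the 20 Trithorax and MLL genes, 1 fell (7.85% of all genes) and 5 rose (7.26%) with EEDS, and 1 fell (5.79%) and 4 rose (5.46%) with helveticoside. KDM6B, which removes the Polycomb mark, was 20.2-fold higher at 20 μg/mL and at least 15.1-fold higher at 60 nM, against a control array near background (limma adjusted p = 0.0129 and 0.0147). DOT1L, ASH1L and KMT2B, histone methyltransferases of active genes, rose with both agents, to 2.36-fold, 2.62-fold and 2.52-fold with EEDS and 2.70-fold, 2.51-fold and 2.17-fold with helveticoside. MEN1, the MLL partner menin, fell with EEDS to 2.40-fold below the control, and KMT2A (MLL itself) was at 0.78 and 0.16 without passing.

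Of the 20 genes of retinoid control, 2 fell and 2 rose with EEDS, and 1 fell and 2 rose with helveticoside, near the shares of all genes (7.85%, 7.26%, 5.79% and 5.46%). RARA, a retinoic acid receptor, rose to 3.22-fold and 4.09-fold (limma adjusted p = 0.0169 and 0.0185). RARB, which is itself a target of retinoic acid, fell to at least 8.81-fold below the control at 20 μg/mL (adjusted p = 0.0409), where it was not well above background, and was 3.45-fold lower at 60 nM without passing. CYP26A1, the retinoic acid hydroxylase, was at 0.98 and 1.27 and did not pass. The lists of regulators were described by counts, and how they bear on the HOX signals was not tested.

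**Figure D5:**
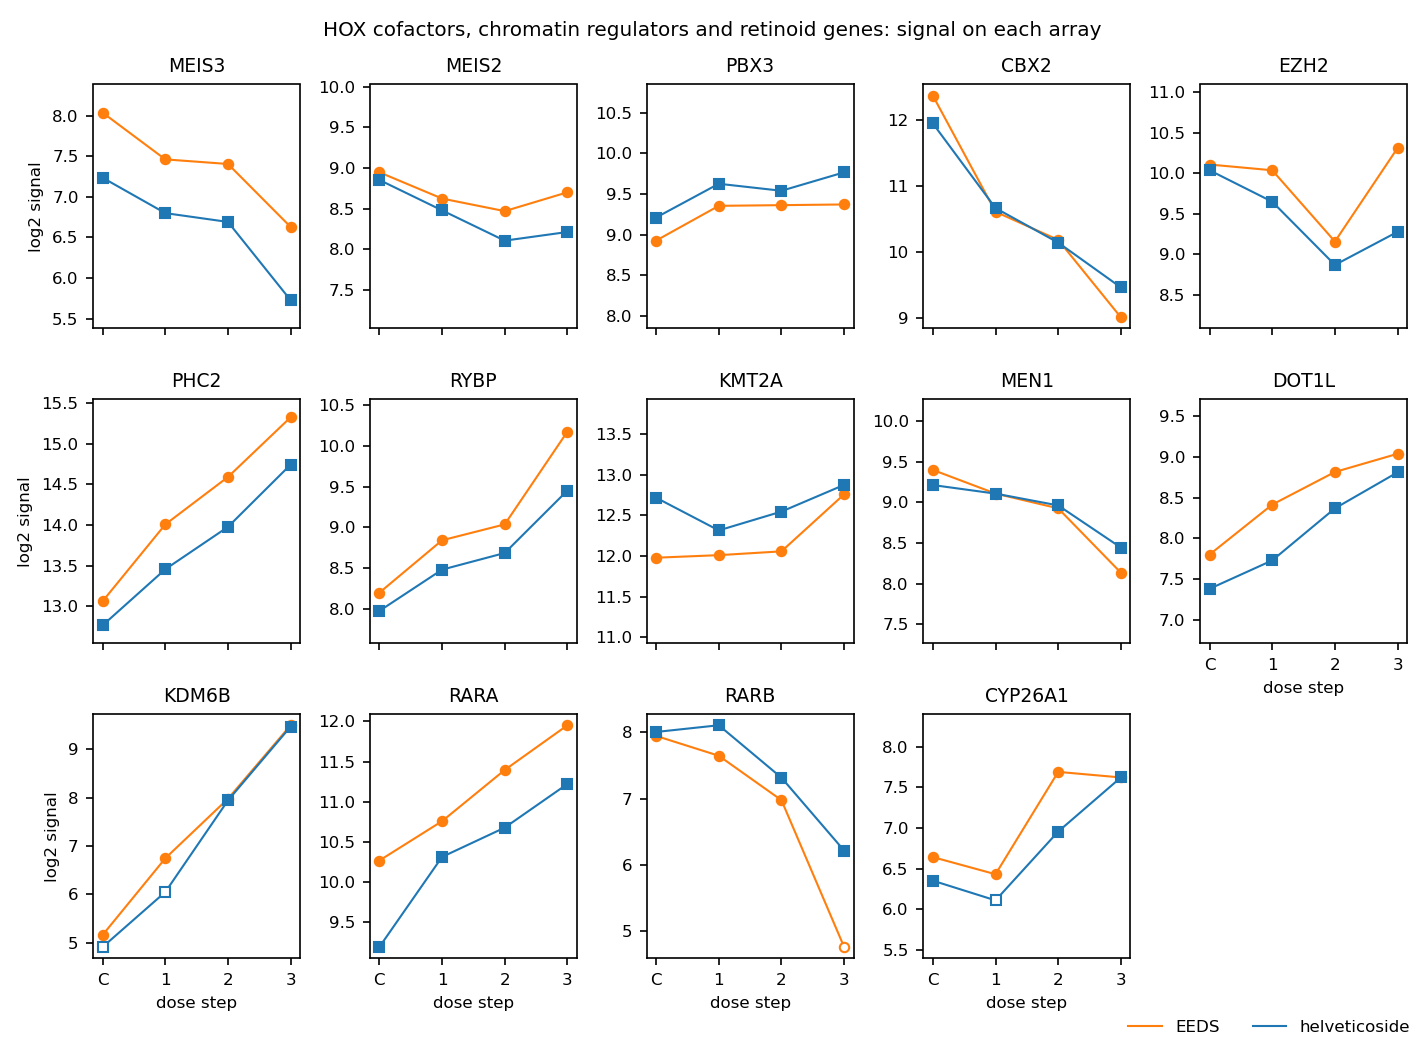
Log2 signal on each of the 8 arrays for 14 HOX cofactors, chromatin regulators and retinoid genes against dose step (C, vehicle control; 1 to 3, rising dose), with EEDS as orange circles, helveticoside as blue squares, open marks not well above background, and a separate axis for each gene. The MEIS3 and CBX2 signals are lower at each step in both series, PHC2, RARA and KDM6B rise at each step, and EZH2 is lowest at the middle dose.

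Genes beside the clusters were looked at for the reach of the changes. Of the 20 flanking genes, 5 fell (7.85% of all genes) and 1 rose (7.26%) with EEDS in limma, and 4 fell (5.79%) and 0 rose (5.46%) with helveticoside. Beside cluster C, CBX5, HNRNPA1, CALCOCO1 and SMUG1 fell with both agents, the first to 3.44-fold and 2.38-fold below the control and HNRNPA1, a splicing factor, to 3.68-fold and 3.79-fold. Beside cluster A, SKAP2 and HIBADH stayed within 2-fold, and EVX1, the homeobox gene at its far end, was 2.98-fold lower with EEDS and 1.32-fold higher with helveticoside. Beside cluster D, MTX2 stayed at 0.25 and 0.01. Of the long noncoding RNAs of the clusters, 2 were found by name among the genes matched. HOTAIR was not well above background on any array, and HOXA11-AS was at least 1.62-fold lower at 20 μg/mL, where it was not well above background.

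Of 99 homeobox genes outside the HOX clusters, 10 fell and 8 rose with EEDS in limma, and 6 fell and 7 rose with helveticoside, near the shares of all genes (7.85%, 7.26%, 5.79% and 5.46%). The medians of their ratios, in log2, were -0.002 for EEDS and -0.003 for helveticoside, against -0.29 and -0.02 for the 39 HOX genes. With EEDS the HOX median was -0.13 with normexp and 0 against the other series' control. Over genes well above background on all 8 arrays, the medians were -0.29 and 0.05 for 50 other homeobox genes and -0.86 and -0.36 for the 21 HOX genes. LHX2, OTX1 and ALX1, regulators of forebrain and face, fell with both agents, LHX2 to 5.20-fold and 3.76-fold below the control. ZEB1 and ZEB2, repressors of E-cadherin, rose to 3.54-fold and 4.55-fold with EEDS and 2.36-fold and 4.29-fold with helveticoside.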

How the data were processed

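A549 cells were profiled on 8 Agilent human expression arrays of 1 colour, 1 array a dose, each with RNA of 3 cultures pooled. The authors deposited scanner intensity values per spot (signal processed with local background subtracted, median signal and background), the software's calls for each spot (outlier, saturation, well above background), and a table of processed intensity values normalized per series. Samples were grouped by agent and dose from their labels. The label names the dye Cy5 while the files hold the green channel, which was used as given.

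Control and outlier spots were left out (246 to 331 spots an array), spots of a probe were averaged, and log2 values were taken after quantile normalization across all 8 arrays. Probes (34105, after 22 with outlier spots alone were dropped) were matched by accession to RefSeq GRCh38.p14 (24809 matched, 19053 genes), and for 4797 genes with several probes the brightest stood for the gene. A gene was kept where its signal was 1.4 times the local background on 1 array of a series, and lower values were raised to the lowest detected signal of the array. The number of arrays, not read depth, limits precision. A value not well above background gave a bound, set by the lowest signal well above background on that array.

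Slopes per dose step were fitted with limma 3.58.1 (trend and robust eBayes; statmod 1.5.0, R 4.3.3) over the 8 arrays with an intercept and slope for each series, which left 4 residual degrees of freedom, and p-values were adjusted by Benjamini-Hochberg over all genes. The fit was also run on simulated data, and the outcome is not given here. Tables were made with Python 3.11.15, pandas 2.3.3 and numpy 2.4.6. Values on every array were given for HOX genes past 2-fold at a top dose or with a trend, and other list members by counts, with those past 2-fold at both top doses or best known by name. Some genes are counted but not reported here by name. Members and lists were chosen with earlier results of these data known. Alternatives were the scanned signal, normexp with an offset of 50, the 75th percentile, stricter and no filters, the mean of probes, the deposited processed intensity, the other control, each dose step left out, 4 arrays alone and plain eBayes.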

Additional observations from a re-analysis of the deposited data

Results flagged for a closer look

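HOXA11, a regulator of the limb and uterus, had ratios of opposite sign with the agents, at signals mostly not well above background. Its log2 ratio was 1.30 at 20 μg/mL EEDS and -0.057 at 60 nM helveticoside. It read 3.48, 3.83, 5.16 and 4.78 with EEDS and 3.12, 3.10, 3.07 and 3.07 with helveticoside, and only the 5 μg/mL array was well above background. The helveticoside values therefore have no direction, and the difference between the agents did not pass. The slopes differed by 0.54 per dose step in limma, at an unadjusted p of 0.039 and an adjusted p of 1. Without background subtraction the ratio at 20 μg/mL was 0.28.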

How the results depend on the processing

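With EEDS, 13 of 39 HOX genes had a trend in place of 8 without background subtraction (18.6% of all genes) and 13 of 39 with normexp (18.7%), 13 of 21 among probes well above background on all 8 arrays (31.3%), and 14 of 38 with the deposited processed values (25.3%). The 8 genes were among them in these 4 cases. Scaled to the 75th percentile 12 of 39 passed (21%), with 6 of the 8 among them and without HOXA4 and HOXB3. With helveticoside, 9 of 21 in place of 5 of 39 passed with probes well above background on all arrays (24.1%) and 3 of 38 with the deposited values (9.1%). Leaving out the lowest, the middle or the top dose of each series, or using the 4 arrays of a series, gave 0 with either agent, as for all genes. HOX genes more than 2-fold higher at 20 μg/mL EEDS numbered 1 in place of 4 without background subtraction and 1 with normexp, 2 with scaling to the 75th percentile and 8 against the other series' control, and at 60 nM helveticoside 1 in place of 2 with the deposited values. The HOXB8 log2 ratio at 20 μg/mL was 2.53 against the other series' control. The causes of the changed counts were not tested. Fits with fewer arrays also leave fewer residual degrees of freedom, and the part of this in the counts of 0 was not tested. Scaling to the 75th percentile moved the median of all genes to -0.36 with EEDS and -0.18 with helveticoside, and those of the 39 HOX genes to -0.53 and -0.31. Against the other series' control the HOX medians were 0 and -0.37. In all, 48 of 67 counts and 76 of 128 medians stayed within the limits set for them. Of 250 gene ratios, 133 moved by at most 0.12 in log2, a limit set from the SD between spots of one probe. Part of these could not move: the filters and the mean of probes leave the ratio unchanged for a gene with 1 probe well above background on every array. Of 378 slopes, 281 stayed on the same side of the adjusted p threshold. No paired analysis was possible because each group holds 1 array. Signal over background limits the 10 genes measured on no array, for which no change could be seen at this signal.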
